A study of Mus musculus with 89 samples.

Results

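The lungs of PBS-challenged mice that had received 40 μg/mouse of CuO PEG were set against those of mice given 40 μg/mouse of core CuO. The members were chosen by their labels alone, namely 3 samples of CuO PEG 40 and 3 samples of CuO 40, together 6 of the 89 samples of the series. Every mouse was a female BALB/c, 6 to 8 weeks old and sensitised with OVA/Alum, so the sensitisation was shared by the controls. The material, dispersed in PBS, was instilled by oropharyngeal aspiration on 4 days in a row, and lung tissue was taken 24 h after the last dose, after the lungs had been lavaged. CuO carries no added surface group, whereas CuO PEG carries polyethylene glycol. The 7 PBS controls received PBS without any material. The RNA on each channel came from 2 RNA samples pooled, so 3 samples stand for 3 independent pools and not for 3 single mice. Equal masses of whole material were given, and per the methods the copper content per mass differed between the materials, so the coating and the dose of copper cannot be told apart here. CuO was also supplied as a powder but CuO PEG in water, with different sonication times. The paper reports larger aggregates and faster copper release in saline for CuO PEG. These differences cannot be told apart from the coating either.

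CuO is a copper source that dissolves in part in acid cell compartments. Released copper and zinc load induce metallothioneins through the metal-responsive factor MTF1, oxidative stress induces haem oxygenase through NRF2, and unfolded protein induces heat shock proteins. Injured lung recruits monocytes and neutrophils through chemokines, produces acute phase proteins, and repairs itself through cell division and new matrix. A polymer such as polyethylene glycol is used to shield a particle surface from proteins and cells.

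Both materials lay on separate slide sets, slides 1 to 3 and slides 4 to 6. CuO 40 had 1 sample on each of slides 1 to 3, which held 3 of the PBS controls. CuO PEG 40 had replicates 1 and 3 on slide 4 and replicate 2 on slide 5, and the other 4 controls lay on slides 4 to 6. The fit therefore joined the materials through controls present on both slide sets, with dye, slide and array position as terms. Levels below are log2 normalised intensities after removal of these terms, and the level of one gene cannot be set against that of another. The PBS controls of the 2 slide sets differed in 969 genes when only dye was a term. Median foreground intensity was 60 to 71 for CuO PEG 40 and 84 to 135 for CuO 40. The tissue carried its lung markers, since the mean log2 level over 12 alveolar type 2 genes lay between 13.9 and 14.7 in all samples of the 3 groups. In bulk tissue, fewer cells of a type and less RNA per cell cannot be told apart.

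With CuO PEG 40, the lungs held less RNA of Mt1, Mt2, Hmox1, Reg3g, Retnlb and most mitotic and DNA replication genes than with CuO 40, and more RNA of most T, B and NK cell markers and of haemoglobins. Of 22911 genes, 1009 (4.4%) were called at an adjusted p (limma, Benjamini-Hochberg over all genes) below 0.05 and a fold change over 1.5. Of these, 461 (2.01%) were higher and 548 (2.39%) lower with CuO PEG. These shares of all genes are the background for the counts of list members between these groups below. The median log2 fold change of the higher genes was 0.74 and of the lower genes -0.75, and 89 and 110 of them, respectively, changed by more than 2-fold. The median standard error was 0.13, and 5663 genes had an unadjusted p under 0.05. Without CuO 40 replicate 2 the count fell to 593.

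Against the PBS controls, CuO 40 changed 2731 genes (11.9%, with 6.84% higher and 5.08% lower) and CuO PEG 40 changed 698 (3.05%, with 2.28% higher and 0.768% lower). Both contrasts share the controls with each other and their exposed samples with the main comparison. Over the 548 genes lower with CuO PEG, the median log2 fold change against PBS was 1.25 for CuO and 0.44 for CuO PEG. Over the 461 higher genes, it was -0.93 for CuO and -0.16 for CuO PEG. The median over all genes was 0.0029 with CuO and -0.0040 with CuO PEG. At their median, the called genes lay nearer to the PBS level with CuO PEG than with CuO.

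The metallothioneins, small proteins that bind copper and zinc, were lower with CuO PEG. Their promoters, and those of 2 further genes named below, are printed as the 250 bases before the annotated start (RefSeq, GRCm38.p6, strand given), because each gene belongs to a stress or growth response with a known short motif. Capitals mark matches of that motif on either strand: TGCNCNC (metal response core) for Mt1 and Mt2, GAANNTTC (heat shock) for Hspa1a and TTTGAA (cell cycle homology region) for Cdk1. The matches within a line do not overlap each other.

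Mt1 (chr8:94178839-94179088, + strand): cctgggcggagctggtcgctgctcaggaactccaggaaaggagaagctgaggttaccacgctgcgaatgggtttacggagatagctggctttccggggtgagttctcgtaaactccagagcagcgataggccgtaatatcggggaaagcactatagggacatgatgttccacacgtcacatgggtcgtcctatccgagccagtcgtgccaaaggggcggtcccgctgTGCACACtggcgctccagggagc
Mt2 (chr8:94172368-94172617, + strand): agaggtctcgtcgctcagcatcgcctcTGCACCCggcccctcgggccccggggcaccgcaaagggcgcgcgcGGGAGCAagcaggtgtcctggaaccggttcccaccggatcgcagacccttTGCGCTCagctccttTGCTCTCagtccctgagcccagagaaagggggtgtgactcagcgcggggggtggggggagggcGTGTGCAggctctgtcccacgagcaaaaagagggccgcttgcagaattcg
Hspa1a (chr17:34972157-34972406, - strand): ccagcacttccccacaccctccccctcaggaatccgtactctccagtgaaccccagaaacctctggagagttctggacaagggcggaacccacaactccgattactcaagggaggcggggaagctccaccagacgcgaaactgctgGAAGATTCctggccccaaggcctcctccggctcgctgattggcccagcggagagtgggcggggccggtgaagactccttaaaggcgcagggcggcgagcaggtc
Cdk1 (chr10:69352913-69353162, - strand): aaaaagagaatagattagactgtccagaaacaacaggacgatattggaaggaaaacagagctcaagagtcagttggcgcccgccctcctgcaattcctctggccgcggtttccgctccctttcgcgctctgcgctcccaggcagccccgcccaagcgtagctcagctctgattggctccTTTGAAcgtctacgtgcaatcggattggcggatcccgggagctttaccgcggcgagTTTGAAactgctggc

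Mt1 held 1 match of TGCNCNC and Mt2 held 5, whereas 44.4% of all 32851 promoters of this length held at least 1 and 15.2% held 2 or more. Hspa1a held 1 match of GAANNTTC, a palindrome that 6.69% of promoters held. Cdk1 held 2 matches of TTTGAA, which 16% of promoters held at least once and 1.81% at least 2 times. A match of these letters is a description of the sequence and not a bound site.

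Mt2 stood at 14.69, 14.87 and 14.46 in the 3 CuO 40 samples, at 12.81, 12.59 and 12.77 in the 3 CuO PEG 40 samples and between 11.24 and 12.14, with a median of 11.53, in the 7 PBS controls. Mt1 stood at 11.85, 12.08 and 12.03 with CuO 40, at 10.65, 10.28 and 10.46 with CuO PEG 40 and between 9.76 and 10.45, with a median of 10.04, in the controls. For both genes the CuO and CuO PEG samples did not overlap, as in 39.6% of all genes (18.5% with CuO PEG higher and 21.1% with CuO PEG lower), and for Mt2 every CuO PEG sample also lay above every control. The log2 fold change of CuO PEG against CuO was -1.95 ± 0.35 (SE, adjusted p = 0.000123) for Mt2 and -1.52 ± 0.24 (SE, adjusted p = 1.55e-05) for Mt1 (limma). Against PBS, Mt2 rose by 3.11 with CuO and by 1.16 with CuO PEG on the log2 scale. Of 18 measured genes for metallothioneins and copper handling, 3 were lower and 1 was higher with CuO PEG (background 2.39% and 2.01%), with a median of -0.08 beside -0.01 over all genes. The third lower gene was Slc39a14, a zinc, iron and manganese importer, at -1.16 ± 0.24 (SE, adjusted p = 0.000716), and the higher one was Sod3, the extracellular copper-zinc superoxide dismutase, at 0.68 ± 0.16 (SE, adjusted p = 0.00198).

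Hmox1, which degrades haem, stood at 12.54, 13.51 and 12.90 with CuO 40 and at 11.36, 11.20 and 11.43 with CuO PEG 40. Its controls lay between 8.15 and 10.82, with a median of 10.16, with 1 control far below the other 6. The groups did not overlap and the log2 fold change was -1.65 ± 0.43 (SE, adjusted p = 0.00651). Hmox1 and Gpx2, a glutathione peroxidase at -0.71 ± 0.19 (SE, adjusted p = 0.00693), were the 2 lower members among 19 measured NRF2 targets, none of which was higher, and the median was -0.23. Without CuO 40 replicate 2, 0 of the Nrf2 antioxidant targets were called.

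Hspa1a, a stress-inducible chaperone, stood at 13.68, 13.88 and 13.61 with CuO 40, at 11.58, 11.06 and 11.60 with CuO PEG 40 and between 9.39 and 11.37, with a median of 9.81, in the controls. Its difference of -2.31 ± 0.58 (SE, adjusted p = 0.00449) was the only call among 17 heat shock proteins, whose median was -0.26. Of 15 p53 targets, 3 were lower and 0 higher, namely Gdf15, a stress cytokine (-1.08 ± 0.16 SE, adjusted p = 9.38e-06), Cdkn1a, the cell cycle inhibitor p21 (-0.83 ± 0.14 SE, adjusted p = 7.41e-05), and Phlda3, an AKT inhibitor (-0.63 ± 0.12 SE, adjusted p = 0.000289).

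**Figure D1:**
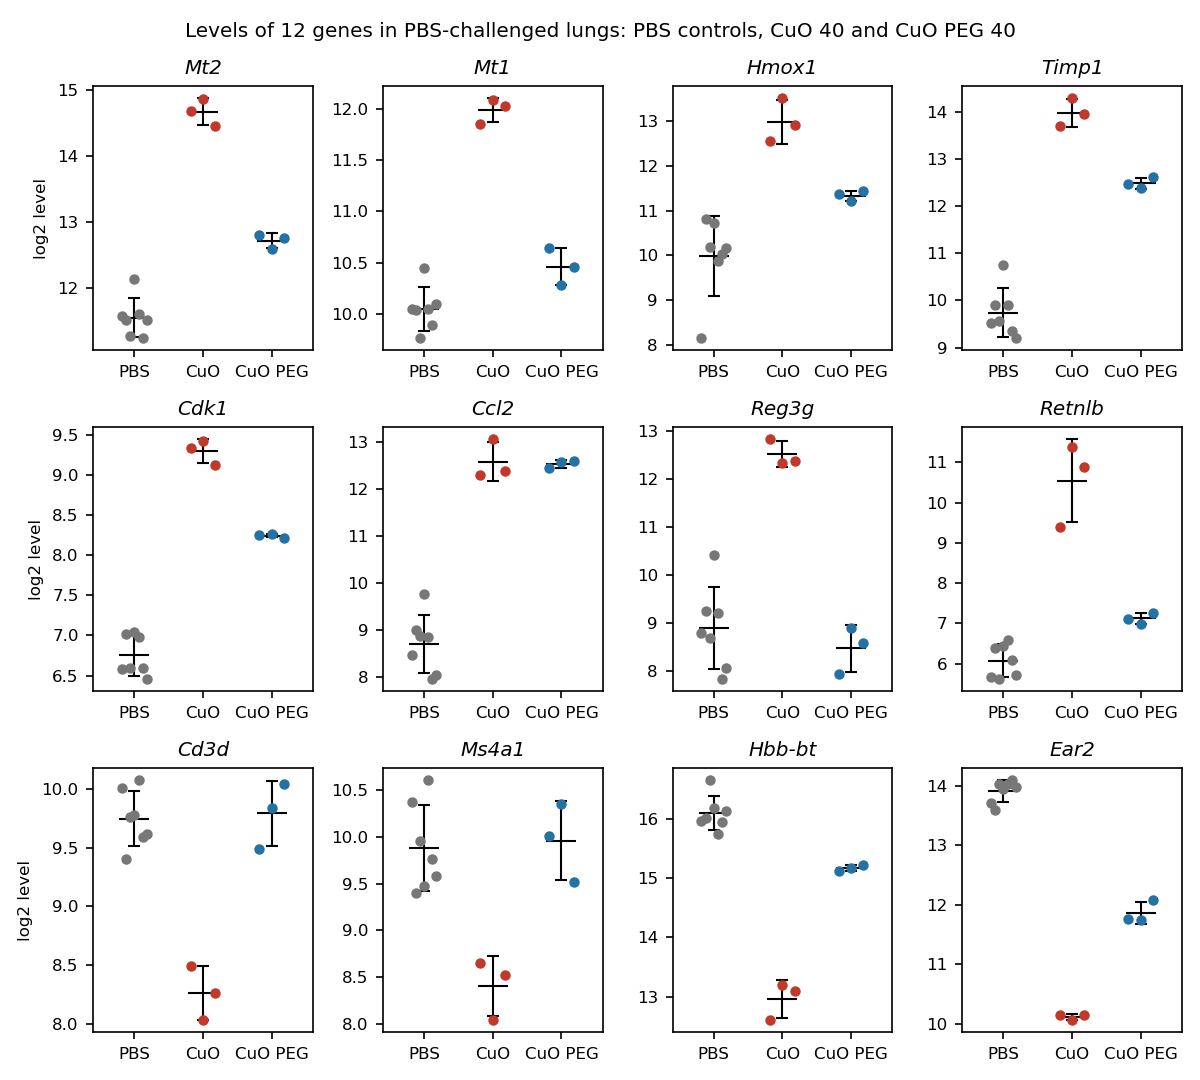
Log2 levels of 12 genes in each sample of the PBS controls (grey, n = 7), CuO 40 (red, n = 3) and CuO PEG 40 (blue, n = 3) after removal of dye, slide and array position, with mean and SD (black) and a separate scale for each gene. The CuO and CuO PEG samples do not overlap in 11 of the 12 panels, beside 39.6% of all genes. Of these, Reg3g, Retnlb, Cd3d, Ms4a1 and Hbb-bt were picked among called genes without overlap, so their panels could not show any. The exception is Ccl2, where CuO PEG lies between 12.44 and 12.60 and CuO between 12.30 and 13.06.

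The chemokines that draw monocytes into tissue were raised by both materials, and no difference between the materials was called. Ccl2 stood at 12.30, 13.06 and 12.39 with CuO 40, at 12.44, 12.57 and 12.60 with CuO PEG 40 and between 7.96 and 9.76, with a median of 8.85, in the PBS controls. Ccl7 stood at 10.27, 11.13 and 10.45 with CuO 40, at 10.18, 10.26 and 10.70 with CuO PEG 40 and between 6.35 and 7.69, with a median of 6.49, in the controls. Every exposed sample lay above every control for both genes, while the samples of the 2 materials overlapped. The difference between the materials was -0.05 for Ccl2, with a 95% interval of -1.13 to 1.03, and -0.24 for Ccl7, with an interval of -1.40 to 0.92, so that folds from 0.458 to 2.05 for Ccl2 and from 0.379 to 1.90 for Ccl7 lay within the error of 3 samples a group. The sign for Ccl2 changed with the samples and terms in the fit. Of 6 monocyte chemokines, 0 were called, with a median of 0.11, while their median against PBS was 2.09 with CuO and 2.23 with CuO PEG.

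Among 8 neutrophil chemokines and growth factors, 0 were lower and 1 was higher with CuO PEG. The higher one was Csf2, which encodes GM-CSF, at 7.46, 7.94 and 7.50 with CuO 40, at 8.57, 8.91 and 8.75 with CuO PEG 40 and between 7.37 and 7.76, with a median of 7.55, in the controls, a log2 fold change of 1.11 ± 0.19 (SE, adjusted p = 4.64e-05). All 3 CuO PEG samples lay above every control, while 2 of the 3 CuO samples lay among the controls. Cxcl2, a neutrophil attractant, had a log2 fold change of -0.89 with a 95% interval of -1.53 to -0.25 and was not called (adjusted p = 0.0561). Ccl17, a chemokine for T helper cells, was higher with CuO PEG by 1.07 ± 0.30 (SE, adjusted p = 0.0108), and the value was -0.18 when the replicate number was added as a block.

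The acute phase proteins, blood and tissue proteins made in inflammation, were lower in part. Orm1, an acid glycoprotein, stood at 10.89, 12.07 and 10.85 with CuO 40, at 9.48, 8.84 and 10.00 with CuO PEG 40 and between 6.10 and 7.41, with a median of 6.73, in the controls. Saa3, a serum amyloid A protein, stood at 15.24, 16.47 and 15.26 with CuO 40, at 15.36, 14.33 and 15.18 with CuO PEG 40 and between 10.05 and 12.43, with a median of 11.28, in the controls. Orm1, picked among called genes without overlap, differed by -1.83 ± 0.49 (SE, adjusted p = 0.00848). Saa3, fixed by name whatever its result, overlapped between the materials, with a difference of -0.70 and a 95% interval of -2.09 to 0.70 (adjusted p = 0.615). Of 20 acute phase proteins, 4 were lower and 1 was higher, with a median of -0.38. The higher one, named after its value was seen, was Itih4, an inter-alpha-trypsin inhibitor chain, and the other lower members were Orm2 (-1.51 ± 0.49 SE, adjusted p = 0.0302), Orm3 (-1.20 ± 0.23 SE, adjusted p = 0.000323) and the fibrinogen chain gene Fgg (-0.75 ± 0.24 SE, adjusted p = 0.0324), and the Orm genes are close copies whose probes may share signal. Without CuO 40 replicate 2, 1 of the acute phase proteins was lower and 0 were higher.

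Reg3g and Retnlb had the largest decreases among the named genes. Reg3g, a bactericidal lectin of epithelia, stood at 12.83, 12.34 and 12.38 with CuO 40, at 7.95, 8.90 and 8.59 with CuO PEG 40 and between 7.83 and 10.42, with a median of 8.80, in the controls. Retnlb, a resistin-like protein of mucosae, stood at 9.38, 11.37 and 10.88 with CuO 40, at 7.11, 6.99 and 7.27 with CuO PEG 40 and between 5.61 and 6.58, with a median of 6.09, in the controls. With CuO PEG, Reg3g thus lay within the range of the controls and Retnlb above it, and both lay below every CuO sample. The log2 fold changes were -4.04 ± 0.98 (SE, adjusted p = 0.00352), or 16.4-fold, and -3.42 ± 0.47 (SE, adjusted p = 1.66e-06), or 10.7-fold. Dmbt1, a scavenger receptor protein that binds bacteria, was lower at -2.71 ± 0.58 (SE, adjusted p = 0.00103), and Ltf, the iron-binding lactoferrin, at -2.29 ± 0.56 (SE, adjusted p = 0.00363). Gp2, a glycoprotein that binds bacterial fimbriae, was not well above background in any CuO PEG 40 sample and at least 3.01-fold lower there than with CuO 40 in normalised levels before removal of the slide terms (adjusted p = 0.00186).

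Secretory genes of the airway differed in both directions. Scgb3a1, a secretoglobin, stood at 15.30, 14.69 and 14.58 with CuO 40, at 12.09, 12.79 and 11.97 with CuO PEG 40 and between 12.70 and 14.37, with a median of 14.06, in the controls. Here 2 of the CuO PEG samples lay below every control and the third near their lowest, whereas every CuO sample lay above their highest, and the log2 fold change was -2.57 ± 0.60 (SE, adjusted p = 0.00225). Muc5b, a gel-forming mucin, was lower at -1.40 ± 0.46 (SE, adjusted p = 0.0337), and Cyp2f2, a club cell cytochrome P450, was higher by 1.36 ± 0.34 (SE, adjusted p = 0.00414), so of 12 club and goblet markers 2 were lower and 1 was higher. Of 12 ciliated cell markers 2 were lower, Foxj1, the master regulator of motile cilia (-0.75 ± 0.19 SE, adjusted p = 0.00502), and Rsph1, a radial spoke protein (-0.65 ± 0.20 SE, adjusted p = 0.0237). Without CuO 40 replicate 2, 0 of the ciliated cell markers were called, and 1 was without CuO 40 replicate 1 or CuO PEG 40 replicate 3.

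In the lists of serpins, other peptidase inhibitors and the wound and plasminogen system, no member was called higher with CuO PEG, near the background of 2.01%. Itih4 of the acute phase list was called higher. Timp1, the inhibitor of matrix metalloproteinases, stood at 13.70, 14.29 and 13.95 with CuO 40, at 12.46, 12.39 and 12.62 with CuO PEG 40 and between 9.19 and 10.75, with a median of 9.56, in the controls, so that CuO PEG lay between controls and CuO without overlap (-1.49 ± 0.48 SE, adjusted p = 0.0309). Of 25 other peptidase inhibitors, a list that holds Timp1, 10 were lower and 0 higher (background 2.39% and 2.01%), with a median of -0.25. Without CuO 40 replicate 2, 6 of the other peptidase inhibitors were lower. The stefins, inhibitors of cysteine cathepsins, held the largest differences of these inhibitors, namely Stfa1 at -2.35 ± 0.46 (SE, adjusted p = 0.000324), Stfa2 at -2.17 ± 0.42 (SE, adjusted p = 0.00032), Cstdc5 at -2.23 ± 0.52 (SE, adjusted p = 0.00228) and Stfa2l1 at -2.07 ± 0.42 (SE, adjusted p = 0.00052). Stfa3 was also lower (adjusted p = 3.4e-05) and is given no fold, since it was not well above background in any CuO PEG 40 sample. These genes are near-identical neighbours on chromosome 16 and their probes may share signal.

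Of 28 serpins, inhibitors of serine proteases, 5 were lower and 0 higher (background 2.39% and 2.01%), with a median of -0.25. Serpina3n stood at 11.75, 12.62 and 11.95 with CuO 40, at 10.66, 10.50 and 10.78 with CuO PEG 40 and between 8.26 and 9.17, with a median of 8.73, in the controls (-1.46 ± 0.34 SE, adjusted p = 0.00209). Serpina3m (-1.44 ± 0.31 SE, adjusted p = 0.000944), Serpina3c (-0.88 ± 0.23 SE, adjusted p = 0.00559) and Serpina3i (-0.84 ± 0.25 SE, adjusted p = 0.0158) moved the same way, and they are copies in 1 cluster on chromosome 12 that probes may not tell apart. Without CuO 40 replicate 2, 3 of the serpins were lower.

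In the wound and plasminogen system, 10 of 27 genes were lower and 0 higher (background 2.39% and 2.01%), with a median of -0.42. Ereg, an EGF receptor ligand, stood at 7.74, 8.49 and 8.46 with CuO 40, at 6.54, 6.45 and 6.21 with CuO PEG 40 and between 5.29 and 5.66, with a median of 5.51, in the controls, and was well above background in 2 of the 3 CuO PEG samples. The log2 fold changes were -1.83 ± 0.24 (SE, adjusted p = 1.37e-06) for Ereg, -1.06 ± 0.24 (SE, adjusted p = 0.00178) for its relative Areg and -1.29 ± 0.22 (SE, adjusted p = 5.36e-05) for the matrix protein Tnc. Of 13 collagens, 4 were lower and 0 higher, with a median of -0.51, among them Col5a1 (-1.10 ± 0.18 SE, adjusted p = 4.63e-05), Col1a1 (-0.79 ± 0.23 SE, adjusted p = 0.0147) and Col5a2 (-0.74 ± 0.18 SE, adjusted p = 0.00454). With median centring 0 of the collagens were called, with a median of -0.47, and 2 were lower without CuO PEG 40 replicate 3. Mmp8, the neutrophil collagenase, was lower at -1.70 ± 0.31 (SE, adjusted p = 0.000139) and Mmp14, a membrane collagenase, at -1.14 ± 0.26 (SE, adjusted p = 0.00194), while Mmp12, the macrophage elastase, was higher by 1.57 ± 0.40 (SE, adjusted p = 0.0054). Spp1, which encodes osteopontin, stood at 14.50, 14.31 and 14.49 with CuO 40, at 13.40, 13.84 and 13.51 with CuO PEG 40 and between 10.09 and 11.24, with a median of 10.61, in the controls. Its materials did not overlap, but the difference of -0.85 was not called (95% interval -1.63 to -0.07, adjusted p = 0.157).

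Cell cycle genes were raised by both materials and less so by CuO PEG. Of 37 mitotic genes, 27 were lower with CuO PEG than with CuO and 0 higher (background 2.39% lower), with a median of -0.76, and the median against PBS was 2.12 with CuO and 1.32 with CuO PEG. Cdk1, the kinase that starts mitosis, stood at 9.34, 9.42 and 9.13 with CuO 40, at 8.25, 8.26 and 8.22 with CuO PEG 40 and between 6.45 and 7.04, with a median of 6.60, in the controls. The 3 groups did not overlap and the log2 fold change between the materials was -1.05 ± 0.23 (SE, adjusted p = 0.00105). Plk1, a mitotic kinase (-1.18 ± 0.24 SE, adjusted p = 0.00059), Tpx2, a spindle factor (-1.16 ± 0.18 SE, adjusted p = 1.86e-05), and Aurka, the kinase that Tpx2 binds (-1.06 ± 0.22 SE, adjusted p = 0.000623), showed the same order. TTTGAA, printed above for Cdk1, occurred in 10 of the 29 mitotic genes with a promoter in the table.

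Of 27 DNA replication genes, 20 were lower and 0 higher, with a median of -0.64. Among them were Rrm2, which makes deoxynucleotides (-0.92 ± 0.24 SE, adjusted p = 0.00651), Tyms, the thymidylate synthase (-0.89 ± 0.18 SE, adjusted p = 0.000463), and Gins2, a helicase subunit (-0.80 ± 0.15 SE, adjusted p = 0.000289). Without CuO 40 replicate 2, 18 of the mitotic cell cycle genes and 12 of the DNA replication genes were lower. With each sample centred on its median in place of quantile normalisation, 12 of the mitotic cell cycle genes and 2 of the DNA replication genes were, with medians of -0.80 and -0.55.

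**Figure D2:**
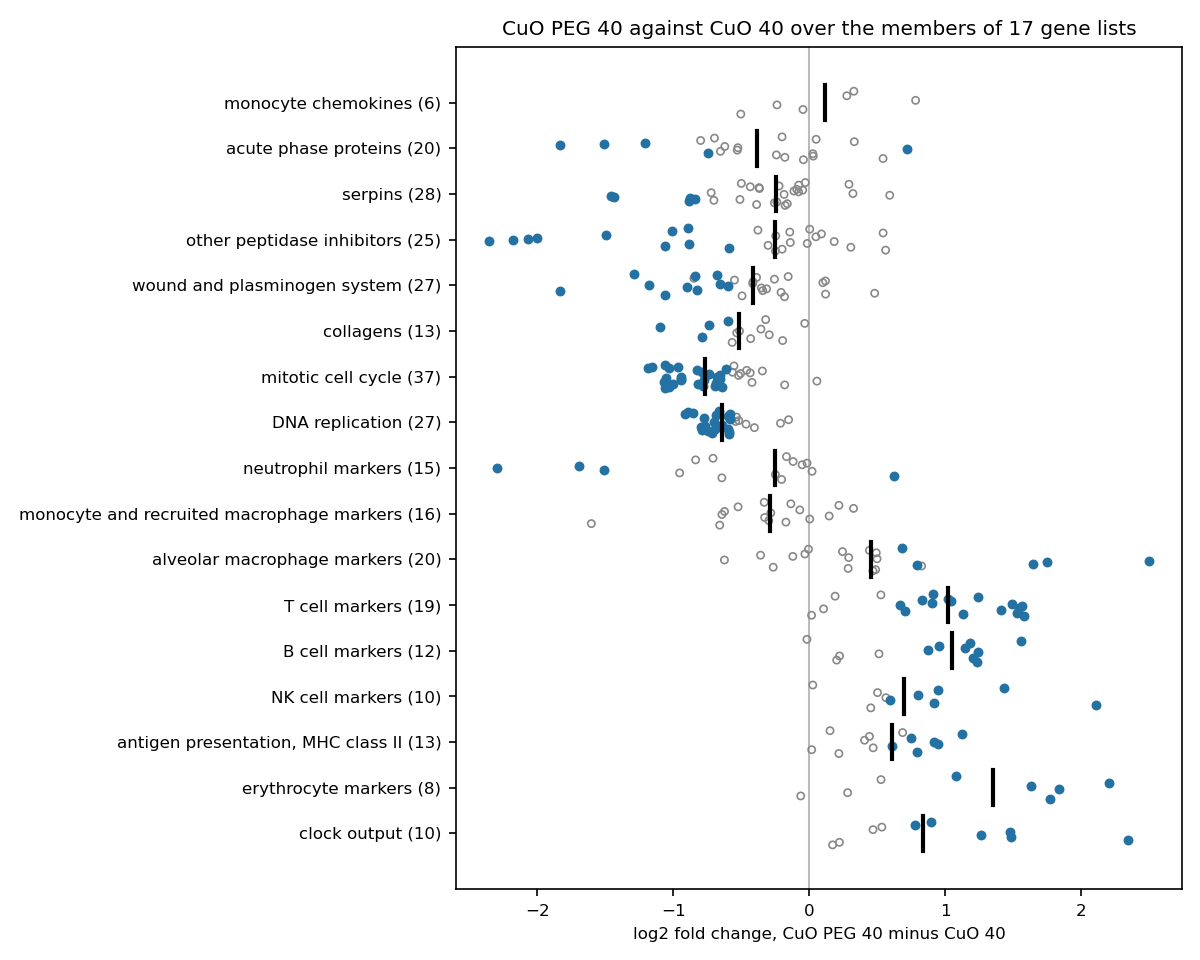
Log2 fold change of CuO PEG 40 against CuO 40 (x axis) for each measured member of 17 gene lists (number of members in brackets), filled where called, open where not, with the median of each list as a black bar. Of the mitotic cell cycle genes 27 of 37 are called to the left of 0 and of the T cell markers 15 of 19 to the right.

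Against the PBS controls, 11 of 19 T cell markers, 7 of 12 B cell markers and 6 of 10 NK cell markers were lower with CuO 40 (background 5.08%). With CuO PEG 40, 0 of each were lower, where the background was itself only 0.768%. Cd3d, a chain of the T cell receptor complex, stood at 8.50, 8.03 and 8.26 with CuO 40, at 9.49, 9.84 and 10.04 with CuO PEG 40 and between 9.40 and 10.07, with a median of 9.76, in the controls. CuO PEG lay within the controls and CuO below all of them, a log2 fold change of 1.53 ± 0.20 (SE, adjusted p = 1.41e-06) between the materials. Of 19 T cell markers, 15 were higher and 0 lower (background 2.01% higher), with a median of 1.02, and the medians against PBS were -0.85 with CuO and 0.07 with CuO PEG. Ccr7, the lymph node homing receptor, was higher by 1.57 ± 0.21 (SE, adjusted p = 1.41e-06), Cd6 by 1.56 ± 0.25 (SE, adjusted p = 2.48e-05) and Cd5 by 1.54 ± 0.24 (SE, adjusted p = 1.14e-05), both modulators of T cell receptor signalling.

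Of 12 B cell markers, 8 were higher and 0 lower, with a median of 1.05. Ms4a1, which encodes CD20, stood at 8.65, 8.04 and 8.53 with CuO 40, at 10.01, 10.36 and 9.52 with CuO PEG 40 and between 9.40 and 10.61, with a median of 9.77, in the controls. The CuO samples lay below all others, at 1.56 ± 0.42 (SE, adjusted p = 0.00912) between the materials, beside 1.24 ± 0.37 (SE, adjusted p = 0.0177) for Cd79b, a signalling chain of the B cell receptor. Of the B cell markers, 2 were higher without CuO 40 replicate 2, 2 without CuO PEG 40 replicate 2 and 0 with dye and hybridisation as terms.

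Of 10 NK cell markers, 6 were higher and 0 lower, with a median of 0.70. Gzma, the granule protease granzyme A, stood at 9.84, 9.76 and 10.18 with CuO 40, at 11.79, 12.03 and 12.27 with CuO PEG 40 and between 11.84 and 12.47, with a median of 12.26, in the controls, a difference of 2.11 ± 0.28 (SE, adjusted p = 1.41e-06). Ccl5, a chemokine of T and NK cells, stood at 10.28, 9.96 and 10.37 with CuO 40, at 12.15, 12.39 and 12.73 with CuO PEG 40 and between 11.89 and 12.59, with a median of 12.22, in the controls, a difference of 2.22 ± 0.31 (SE, adjusted p = 2.42e-06). In both genes CuO lay below every control. Ms4a4b, a membrane protein of lymphocytes, was among the 10 highest at 1.93 ± 0.26 (SE, adjusted p = 1.41e-06).

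MHC class II genes, which present antigen, were higher in 6 of 13 cases and lower in 0, with a median of 0.61. H2-Eb1 stood at 13.96, 13.56 and 13.38 with CuO 40, at 14.66, 14.68 and 14.93 with CuO PEG 40 and between 14.42 and 14.76, with a median of 14.65, in the controls (1.12 ± 0.18 SE, adjusted p = 1.55e-05). H2-Ab1 (0.92 ± 0.16 SE, adjusted p = 0.0001) and H2-Aa (0.95 ± 0.20 SE, adjusted p = 0.000943) followed, and H2-Aa turned to -0.12 without batch terms. Of 10 dendritic cell markers 4 were higher, among them Flt3, a growth factor receptor (0.84 ± 0.16 SE, adjusted p = 0.000315), and Clec9a, a receptor for dead cells (0.77 ± 0.14 SE, adjusted p = 0.000188). Of 15 interferon response genes 0 were called, with a median of 0.31, and Cxcl10 had a 95% interval of -1.28 to 1.29.

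Markers of myeloid cells did not move as 1 group. Of 16 markers of monocytes and recruited macrophages 0 were called, with a median of -0.29 between the materials and of 1.38 with CuO and 1.07 with CuO PEG against PBS. Of 15 neutrophil markers 3 were lower, namely Ltf, Mmp8 and the decoy receptor Il1r2 (-1.51 ± 0.34 SE, adjusted p = 0.00186), and 1 was higher, the growth factor receptor Csf3r (0.62 ± 0.14 SE, adjusted p = 0.0017). The mean log2 level over the neutrophil markers was 9.77 to 10.2 with CuO 40, 9.34 to 9.45 with CuO PEG 40 and 8.95 to 9.16 in the controls. The part of neutrophils in the differences of Mmp8, Ltf and the stefins, which neutrophils also make, was not tested.

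Of 20 alveolar macrophage markers, 5 were higher and 0 lower, with a median of 0.45. Of the alveolar macrophage markers, 3 were higher without CuO 40 replicate 2, CuO PEG 40 replicate 2 or PBS replicate 2. Against PBS, 11 of 20 were lower and 0 higher with CuO 40, with a median of -0.65 (background 5.08% lower). With CuO PEG 40, 9 were lower and 1 higher against PBS, with a median of -0.58 (background 0.768% lower). Fabp1, a fatty acid binding protein, stood at 6.06, 6.06 and 6.13 with CuO 40, at 9.02, 8.39 and 8.33 with CuO PEG 40 and between 9.68 and 10.39, with a median of 10.12, in the controls. The fitted difference was 2.50 ± 0.45 (SE, adjusted p = 0.000133), and since 1 of its 3 CuO samples was not well above background, its size is not exact. Ear2, a ribonuclease, stood at 10.14, 10.05 and 10.15 with CuO 40, at 11.76, 11.75 and 12.07 with CuO PEG 40 and between 13.59 and 14.09, with a median of 13.98, in the controls. For both genes CuO PEG lay between CuO and the controls without overlap, but Fabp1 was picked among called genes without overlap between the materials. Ear2 differed by 1.75 ± 0.32 (SE, adjusted p = 0.000188) and Ear1 by 1.64 ± 0.31 (SE, adjusted p = 0.000261), 2 near-identical genes whose probes may share signal. Of 6 eosinophil markers 0 were called.

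Haemoglobin and haem synthesis genes of erythrocytes were higher with CuO PEG. Hbb-bt, a beta globin, stood at 12.60, 13.20 and 13.10 with CuO 40, at 15.12, 15.16 and 15.23 with CuO PEG 40 and between 15.74 and 16.65, with a median of 16.01, in the controls. Alas2, the erythroid enzyme of haem synthesis, stood at 8.27, 8.92 and 8.80 with CuO 40, at 10.13, 10.51 and 10.66 with CuO PEG 40 and between 11.22 and 12.18, with a median of 11.55, in the controls. The 3 groups did not overlap for either gene, which for the 2 materials was a condition of their choice. Hbb-bt was 4.61-fold higher with CuO PEG (adjusted p = 8.46e-06), and the log2 differences were 2.04 ± 0.30 (SE, adjusted p = 5.48e-06) for Hbb-b2, 1.84 ± 0.34 (SE, adjusted p = 0.000183) for Hba-a1 and 1.77 ± 0.33 (SE, adjusted p = 0.000195) for Alas2, and the globin copies may share signal. Of 8 erythrocyte markers 5 were higher and 0 lower, with a median of 1.35, and 0 were called with the replicate number as a block. The mean over the list was 9.83 to 10.3 with CuO 40, 11.1 to 11.4 with CuO PEG 40 and 11.6 to 12.1 in the controls. Between the materials, the erythrocyte markers thus moved in the same direction as the lymphocyte genes, and so they did against CuO NH3 below. In OVA challenge the erythrocyte median was -0.06 with 0 of 8 called, beside 0.73 for T cell markers with 6 of 19 higher. Against PBS, 4 of 8 erythrocyte markers were lower with CuO PEG 40, beside 0 of 19 T cell markers. The part of blood held in the tissue in the lymphocyte differences was not tested.

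Some markers of resident lung cells were called as well. Of 12 endothelial markers 3 were higher, led by Kdr, the VEGF receptor, at 0.91 ± 0.16 (SE, adjusted p = 8.85e-05), with Ptprb at 0.88 ± 0.21 (SE, adjusted p = 0.00232) and Cdh5, the junction protein VE-cadherin, at 0.74 ± 0.19 (SE, adjusted p = 0.00538). Of 12 alveolar type 2 markers 4 were higher, among them Lyz1 (1.09 ± 0.27 SE, adjusted p = 0.00389), a lysozyme, and Sftpa1 (0.77 ± 0.13 SE, adjusted p = 4.09e-05), a surfactant protein. Lyz1 turned to -0.08 without batch terms. Of 9 alveolar type 1 markers 2 were higher, Clic5, a chloride channel protein (0.77 ± 0.18 SE, adjusted p = 0.00287), and Sema3e, a guidance factor (0.77 ± 0.18 SE, adjusted p = 0.00286). Of 12 fibroblast and smooth muscle markers, Des, the muscle filament desmin, was lower (-0.88 ± 0.16 SE, adjusted p = 0.000145) and Postn, a matrix protein, higher (0.59 ± 0.18 SE, adjusted p = 0.0258), and Krt19 was the only lower one of 6 mesothelial markers (-0.82 ± 0.14 SE, adjusted p = 7.41e-05).

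Clock output genes, which follow the daily cycle, were higher with CuO PEG in 6 of 10 cases and lower in 0, with a median of 0.83. Dbp, a transcription factor that peaks with clock output, stood at 12.06, 11.30 and 11.37 with CuO 40, at 13.98, 13.76 and 14.02 with CuO PEG 40 and between 14.06 and 14.69, with a median of 14.44, in the controls. Every CuO sample lay below the rest and CuO PEG just below the controls, at 2.35 ± 0.32 (SE, adjusted p = 1.63e-06) between the materials, and Nr1d2, a repressor within the clock, differed by 1.48 ± 0.22 (SE, adjusted p = 9.38e-06), Hlf by 1.48 ± 0.36 (SE, adjusted p = 0.00364) and Nr1d1 by 1.26 ± 0.32 (SE, adjusted p = 0.00551). Of 5 antiphase genes 2 were lower, Nfil3, which opposes Dbp (-1.04 ± 0.23 SE, adjusted p = 0.00117), and Arntl (Bmal1), the clock activator (-0.76 ± 0.15 SE, adjusted p = 0.00052). The hour of tissue collection of each group is not in the labels, so its part was not tested.

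The difference between the materials was then set beside that at the other doses, from the same fit. At 10 μg/mouse 245 genes (1.07%) were called, 0.175% higher and 0.895% lower with CuO PEG. At 2.5 μg/mouse 425 genes (1.86%) were called, 0.402% higher and 1.45% lower. Between 40 and 10 μg/mouse, the difference itself changed in 266 genes (1.16%), 180 (0.786%) in the positive and 86 (0.375%) in the negative direction (limma, contrast of contrasts). This count fell to 132 without CuO 40 replicate 2, to 127 without CuO PEG 40 replicate 2 and to 4 with dye and hybridisation as terms, and rose to 441 without CuO 40 replicate 1.

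In PBS challenge, metallothionein and cell cycle genes were lower with CuO PEG at every dose. Mt2 differed by -1.89, -1.54 and -1.95 at 2.5, 10 and 40 μg/mouse, all called, and Cdk1 by -1.02, -0.97 and -1.05, all called. The differences of both genes between 40 and 10 μg/mouse were not called (adjusted p = 0.766 and 0.953). Of the mitotic genes 24, 22 and 27 of 37 were lower at the 3 doses in this order. Saa3 and Ccl2, not called at 40 μg/mouse, were lower at 2.5 μg/mouse, with log2 fold changes of -4.49 (adjusted p = 7.22e-05) and -2.73 (adjusted p = 0.00229), and the interaction of dose for 2.5 μg/mouse was not tested.

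Lymphocyte, MHC class II and erythrocyte genes differed at 40 μg/mouse and were not called at 10 μg/mouse. Cd3d differed by 0.45, 0.10 and 1.53 at the 3 doses, and the change from 10 to 40 μg/mouse was 1.43 (adjusted p = 0.000222). Ccl5 changed by 2.01 (adjusted p = 0.000889), H2-Eb1 by 1.20 (adjusted p = 0.000313) and Hbb-bt by 1.69 (adjusted p = 0.00991). The change was called in 10 of 19 T cell markers, 6 of 13 MHC class II genes, 3 of 8 erythrocyte markers and 1 of 12 B cell markers, all in the positive direction. In the negative direction, Retnlb changed by -2.56 (adjusted p = 0.00502), Ereg by -1.39 (adjusted p = 0.003) and Stfa1 by -1.97 (adjusted p = 0.0371). Csf2 differed by -1.17, -0.21 and 1.11 in rising order of dose, called as lower at the first and as higher at the last.

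**Figure D3:**
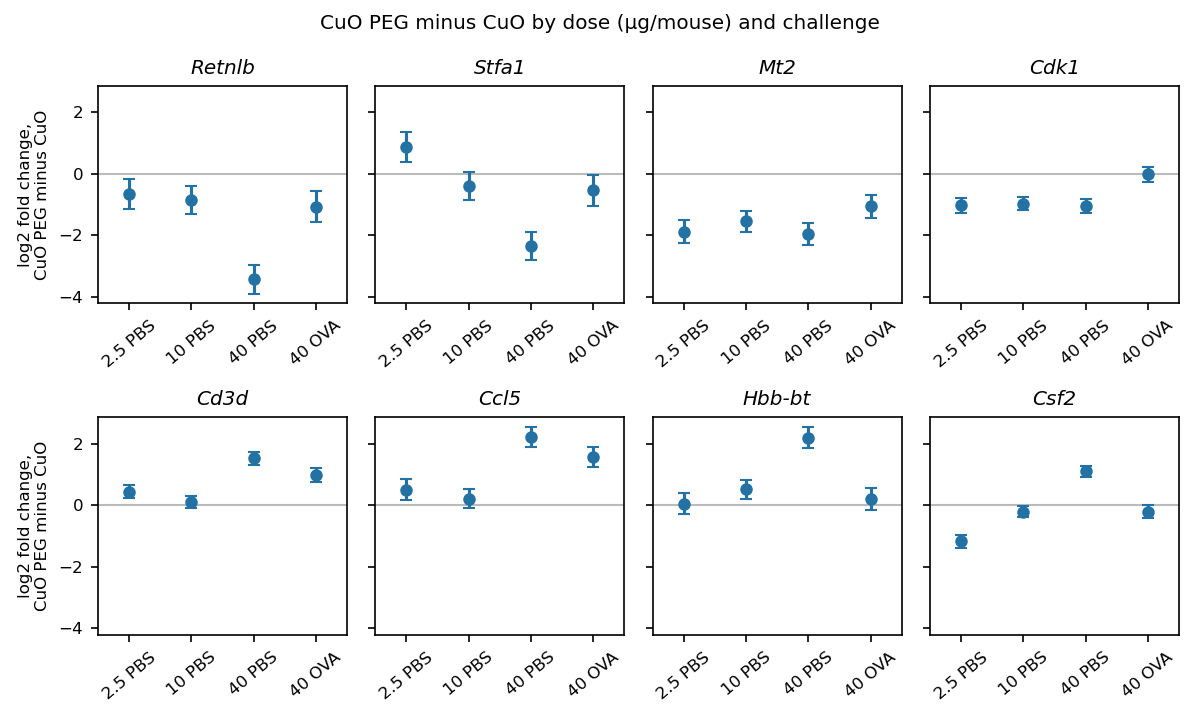
Log2 fold change of CuO PEG against CuO (y axis, mean and SE from the fit) for 8 genes at 2.5, 10 and 40 μg/mouse in PBS challenge and at 40 μg/mouse in OVA challenge. Mt2 lies below 0 at every dose, whereas Cd3d, Ccl5 and Hbb-bt leave 0 at 40 μg/mouse and Csf2 crosses it.

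In OVA-challenged mice, a model of allergic airway inflammation, CuO PEG 40 and CuO 40 differed in 92 genes (0.402%), 80 (0.349%) higher and 12 (0.0524%) lower with CuO PEG. Ccl5 was higher by 1.57 (adjusted p = 0.0185), Gzma by 1.38 (adjusted p = 0.0245) and H2-Eb1 by 1.00 (adjusted p = 0.0087). Cdk1 differed by -0.01 (adjusted p = 0.994) and Hbb-bt by 0.20 (adjusted p = 0.905), neither called. Of 18 metallothionein and copper handling genes 0 were called in OVA challenge, near the background of 0.402%, with a median of -0.08. The difference between the challenges itself was called in 2 genes (0.00873%), 1 in each direction (0.00436%), with 2052 at an unadjusted p under 0.05. One of them was Csf2 at -1.31 (adjusted p = 0.0159), and for Cdk1 it was 1.04 (adjusted p = 0.303). The count of 2 lay between 0 and 39 over the other settings.

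CuO PEG was also set beside the other modified materials at 40 μg/mouse, CuO COOH, which carries carboxyl groups, and CuO NH3, which carries methylamine groups. Against CuO, 26 genes (0.113%, with 0.0698% higher and 0.0436% lower) were called for CuO COOH and 30 (0.131%, with 0.0393% higher and 0.0917% lower) for CuO NH3, beside the 1009 for CuO PEG. The 3 contrasts share the CuO 40 samples. CuO COOH lay on the slides of CuO, and CuO NH3 on the slide set of CuO PEG. Mt2 differed from CuO by -0.08 with CuO COOH and -0.09 with CuO NH3, beside -1.95 with CuO PEG. For Cdk1 the values were -0.14, 0.08 and -1.05, and for Cd3d 0.35, 0.38 and 1.53. Not every list had its largest median with CuO PEG. The alveolar macrophage markers had a median of 0.47 with CuO COOH (4 of 20 higher) beside 0.45 with CuO PEG, and Ear2 was called for CuO COOH at 1.26 (adjusted p = 0.0195). With CuO NH3 the medians were -0.81 for club and goblet markers, -0.67 for ciliated cell markers, 0.34 for monocyte chemokines and 0.35 for eosinophil markers, beside -0.17, -0.26, 0.11 and 0.29 with CuO PEG. CuO COOH also had larger absolute medians for neutrophil chemokines (-0.24 beside -0.11) and platelet markers (-0.24 beside -0.04). Fibroblast and smooth muscle markers were at 0.14 with CuO COOH, beside 0.08. Those of CuO NH3 were larger for mesothelial markers (0.38 beside 0.04), inflammatory cytokines (0.16 beside -0.11) and cholesterol synthesis (-0.072 beside -0.057).

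CuO PEG and CuO NH3 shared a slide set, with samples of both on slides 4 and 5 and CuO NH3 replicate 3 on slide 6. Between them 1096 genes (4.78%) were called, 480 (2.1%) higher and 616 (2.69%) lower with CuO PEG. Within this slide set Mt2 was lower with CuO PEG at -1.86 (adjusted p = 1.37e-05), Cdk1 at -1.13 (adjusted p = 3.49e-05) and Retnlb at -4.01 (adjusted p = 4.01e-10). Cd3d was higher by 1.14 (adjusted p = 5.44e-06) and Hbb-bt by 1.76 (adjusted p = 1.25e-05). Of the lists, 29 of 37 mitotic genes were lower, and 14 of 19 T cell markers, 7 of 12 B cell markers and 6 of 8 erythrocyte markers were higher. Of 15 neutrophil markers 9 were lower and 1 higher, with a median of -0.65, more than the 3 lower against CuO. Also lower were 12 of 25 other peptidase inhibitors (1 higher), 13 of 27 wound and plasminogen genes and 7 of 13 collagens. Reg3g and Scgb3a1 were not called in this contrast. Against CuO NH3 they differed by -0.89 and -0.35, and their difference of CuO NH3 from CuO was -3.15 and -2.22, not called either (adjusted p = 0.208 and 0.0982).

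**Figure D4:**
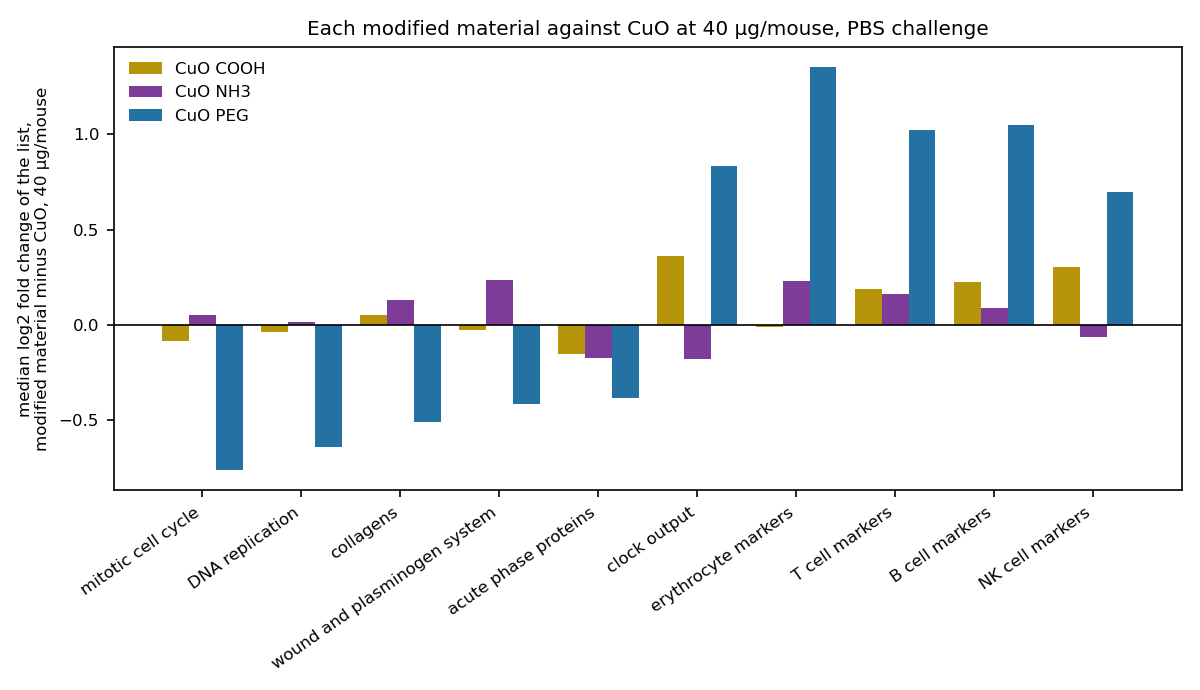
Median log2 fold change against CuO at 40 μg/mouse, PBS challenge (y axis), over the measured members of 10 gene lists for CuO COOH (ochre), CuO NH3 (purple) and CuO PEG (blue). The bars of CuO PEG are the longest in these 10 lists, at -0.76 for mitotic genes and 1.02 for T cell markers.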

How the data were processed

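Whole-genome expression in lung tissue was measured on 2-colour Agilent mouse arrays used as single channels, with 1 sample per dye, giving 89 samples on 46 arrays of 6 slides. The intensity values used are the median foreground of each channel in the scanner files the authors deposited, extracted with Feature Extraction 12.0.2.2 per the file headers and not normalised. The deposited log2 value table, made by the authors from the same arrays, served as an alternative. The labels give the dose of 40 once in mg and once in μg, and the methods' μg/mouse is used here.

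Intensities were log2 transformed without background subtraction and quantile normalised over all samples. Control and outlier spots were left out, and probes were averaged per gene through RefSeq accessions (GRCm38.p6). Of 56605 probes 32994 had a gene, giving 22911 genes. No used spot was saturated. All 26 groups were fitted together in limma 3.58.1 (R 4.3.3) with dye, slide and array position as terms. Promoters and figures used Python 3.11.15 with pandas 2.3.3 and matplotlib 3.10.9.

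A gene was called at a Benjamini-Hochberg adjusted p below 0.05 over all genes and a log2 difference over 0.58. A gene not well above background in every sample of a group was given as a bound, from the mean of the brighter group and the lowest well-measured signal of each dim array. Stfa3, whose bound before removal of the slide terms exceeded its fitted fold, was given none. P-values measure the spread between pools of RNA, and 3 samples a group limit the precision.

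The members and the 39 gene lists (571 genes, 9 of them not measured) were chosen with earlier results of these data known. Named genes were the 10 highest and 10 lowest called genes without overlap between the groups and well above background in 1 of them (bare gene models left out), up to 4 such called members of each list, 10 genes fixed by name (Ccl2, Ccl7, Saa3, Timp1, Spp1, Mt1, Mt2, Hmox1, Cdk1 and Ear2), and up to 2 further members of a list as examples. Tested on simulated data, the fit recovered 198 of 200 genes changed by a log2 of 1.5 for CuO PEG 40 against CuO 40, over 22851 genes, with 2 false calls. These data were built from the fitted terms with independent normal noise, so they check the code and not whether the terms fit the arrays. The planted change was larger than the medians of the called genes, 0.74 and -0.75. Background correction, normalisation, dim probes, batch terms, the replicate number as a block, the samples fitted and the choice of probe were varied, and samples were left out in turn. Probes without a gene were not used here.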

Additional observations from a re-analysis of the deposited data

Results flagged for a closer look

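Among the 7 PBS controls, 8 of 116 genes tested had 1 sample apart from the others by Dixon's criterion, and chance gives about 1 in 20. Replicate 4 stood apart in Dmbt1 (log2 level 7.247), Etv5 (13.360), Lamp3 (14.005) and Mt2 (12.142). Replicate 1 stood apart in Hmox1 (8.148) and Mmp14 (7.075), and replicate 6 in Muc5b (9.516) and Scgb3a1 (12.696).

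The difference between CuO PEG and CuO changed between 10 and 40 μg/mouse in 30 of the 116 named genes, by the contrast of both differences in limma. In lymphocyte genes the change on the log2 scale was 2.007 in Ccl5, 1.675 in Gzma, 1.666 in Cd5, 1.634 in Ms4a4b, 1.590 in Cd6, 1.493 in Ccr7, 1.427 in Cd3d, 1.013 in Nkg7 and 0.930 in Itgae. In MHC class II genes it was 1.198 in H2-Eb1, 1.029 in H2-Aa, 1.019 in H2-Ab1 and 1.005 in Cd74. In globins it was 1.882 in Hba-a2, 1.686 in Hbb-bt, 1.640 in Hba-a1 and 1.527 in Hbb-b2.

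Further positive changes were 1.581 in Ccl17, 1.319 in Csf2, 1.025 in Sftpa1 and 0.945 in Lamp3. Negative changes were -2.559 in Retnlb, -2.033 in Stfa3, -1.994 in Stfa2, -1.965 in Stfa1, -1.385 in Ereg, -1.046 in Lox, -1.021 in Des, -0.921 in Krt19 and -0.696 in Gdf15. Stfa3 was not well above background with CuO PEG 40, so its value is no exact size.

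Between the PBS and the OVA challenge, the difference of the materials at 40 μg/mouse changed in Csf2 by -1.306.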

How the results depend on the processing

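The count of 1009 genes became 484 with median centring, 475 with dye and hybridisation as terms and 1785 without batch terms, and 593 to 1228 when 1 sample was left out. Under the first 3 settings, 352, 336 and 627 of the 1009 genes were among those called. The count of higher genes, 461, became 201, 181 and 781 under these 3 settings. It was 292 with the replicate number as a block and 261 to 525 with 1 sample left out. The count of lower genes, 548, became 283, 294 and 1004 under the same 3 settings, and 332 to 703 with 1 sample left out. With the replicate block 828 genes were called, and 390 of these were among the 1009. Of the 828 genes 35.3% were higher, beside 45.7% of the 1009. Between samples of the same number, the correlations of deviations from the group means were -0.234, -0.122 and -0.268 after removal of the slide terms. Since each CuO 40 replicate lay on its own slide, these correlations cannot show whether the numbers pair the samples.

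The dose contrast (266 genes) gave 37 with median centring, 4 with dye and hybridisation, 116 without batch terms and 127 to 441 with 1 sample left out. The challenge contrast (2 genes) gave 0 with median centring, loess, dye and hybridisation, slide set only, no batch terms or the replicate block, 29 with hybridisation as a random block, 39 with dye and slide only, and 0 to 21 with 1 sample left out. The causes were not tested.

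Reversed values were 0.027 for Ccl2 with slide set only, 0.308 with PBS-challenged samples only and 0.129 with the 3 groups only, and it ranged from -0.225 (without CuO 40 replicate 1) to 0.262 (without CuO 40 replicate 2) with 1 sample left out. Ccl7 ranged from -0.455 to 0.092 without the same samples. Other reversals were Ctsk at -0.109 with dye and hybridisation, Ccl17 -0.184 with the replicate block, and H2-Aa -0.116, Cyp1a1 -0.354 and Lyz1 -0.080 without batch terms. Over the called named genes, 1423 values kept direction and call, 252 lost the call and 5 reversed under these settings, and 2231 kept and 121 lost it with 1 sample left out. Signal over background limits the sizes for Gp2, Stfa3 and Fabp1.

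With the replicate block, 0 of the erythrocyte markers, 0 of the B cell markers, 0 of the collagens and 7 of the T cell markers were called. With median centring, 1 of the antigen presentation, MHC class II genes, 0 of the alveolar type 2 markers and 3 of the erythrocyte markers were higher. With dye and hybridisation as terms it was 1, 0 and 3, beside 9 of the T cell markers, 2 of the NK cell markers, 2 of the clock output genes and 0 of the B cell markers.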
